A study of Homo sapiens with 12 samples.

Results

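The interaction of PRMT5 knockdown and irradiation is the knockdown effect in irradiated cells minus the knockdown effect in non-irradiated cells, and it was measured here over all 12 of the 12 libraries of the study. The 12 libraries form 6 pairs, each with 1 control and 1 knockdown library of the same replicate number, 3 pairs without irradiation and 3 with it. A positive value means that a gene's knockdown effect was higher after irradiation, and a negative value that it was lower, on the log2 scale. All cells were LNCaP-shPRMT5, a line made from LNCaP, a prostate cancer line from a lymph node metastasis, and carrying a short hairpin RNA against PRMT5 that doxycycline switches on. They grew in RPMI1640 with fetal bovine serum. The 4 groups of 3 were non-irradiated controls (no doxycycline), non-irradiated knockdowns (doxycycline at 1 µg/mL every 48 h), irradiated controls (no doxycycline, 2 Gy) and irradiated knockdowns (the same doxycycline, 2 Gy). Irradiated cells were harvested 24 h after the dose.

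Each knockdown library had the hairpin and doxycycline together, and no library had doxycycline with another hairpin, so their effects cannot be told apart. The irradiated and the non-irradiated libraries came in separate tables, so the dose and whatever else set the tables apart cannot be told apart. Nothing in the labels says that replicates were separate cultures, so the p-values rest on a spread that may not be one between independent cultures. Replicates of a group differed by more than sampling noise (chi-square per gene from 9.34 to 138.5), and the origin of that spread was not tested.

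With its partner WDR77, PRMT5 methylates arginines symmetrically, on histone tails and on the Sm proteins of the spliceosome. Ionizing radiation breaks both strands of DNA, which cells repair by homologous recombination or by end joining. It also stabilizes p53, whose target p21 stops the cell cycle and lets repressor complexes silence genes of replication and mitosis. The comparison asks whether loss of PRMT5 moves other genes, or the same genes by other amounts, once cells have been irradiated.

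Total counts ran from 14.8 to 33.2 mega-counts per library, and the non-irradiated libraries lay between 14.8 and 27.7. The 8 luminal prostate markers, which define the cell type of the line, summed to between 4640 and 7180 CPM (counts per mega-count, scaled by TMM) in every group. Pair 1 stood apart in both tables. Across genes (not independent of each other), pair differences of non-irradiated pairs 2 and 3 correlated at 0.69, and those of pair 1 with either at 0.30 and 0.32. The irradiated pairs 2 and 3 correlated at 0.62, and irradiated pair 1 with either at 0.29 and 0.33. Between the tables, non-irradiated pair 1 correlated with irradiated pairs 1, 2 and 3 at 0.24, 0.46 and 0.43. For non-irradiated pair 2 these values were 0.17, 0.37 and 0.37, and for pair 3 they were 0.16, 0.43 and 0.42. Values without non-irradiated pair 1 are given with the replication, G2/M, recombination, Fanconi anemia, end joining, p53, histone, Sm and ATF4 lists. For the other lists they are given only in part, in the closing section.

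PRMT5 (ENSG00000100462.15, chromosome 14, 22920511 to 22929585, GRCh38) was measured at 186, 190 and 198 CPM in non-irradiated controls and at 26.6, 30.8 and 32.8 CPM in non-irradiated knockdowns. Irradiated controls held 230, 187 and 187 CPM and irradiated knockdowns 31.3, 26.9 and 24.9 CPM. Every knockdown library lay below every control library. The pair differences were -2.80, -2.62 and -2.59 without irradiation and -2.87, -2.79 and -2.91 with it, and they overlapped. The knockdown of PRMT5 itself had an interaction of -0.19 (SE 0.09, edgeR adjusted p = 0.43), and a 2-sided exact permutation test of 3 against 3 pair differences gave p = 0.2, where 0.1 is the smallest it can give. Of PRMT5's exon positions, 27.1% are also covered by another gene, and the strand setting of the counting is not given in the sources used here.

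Of 17191 genes tested, 0 (0% of those tested) had an interaction at an adjusted p under 0.05 (edgeR quasi-likelihood test with pairs as a block, Benjamini-Hochberg adjustment over all genes), which is what "called" means below. The smallest adjusted p was 0.173, shared by 20 genes. At an unadjusted p under 0.05 there were 1040 positive values (6.05% of genes tested) and 1053 negative ones (6.13%). With other tools, limma-voom called 0 genes and DESeq2 called 65, of which 19 were positive and 46 negative. The median interaction of all genes was 0.01, its median standard error was 0.16, and 4.06% of genes had an absolute interaction above 1, with 428 negative and 270 positive among them. Of the DESeq2 calls, 12 were replication genes and 3 mitotic genes, all negative.

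The knockdown effects on either side of that difference were called often. Without irradiation 2349 genes rose with the knockdown (13.7% of genes tested) and 2427 fell (14.1%). With irradiation 934 rose (5.43%) and 1040 fell (6.05%). Of these, 677 rose and 801 fell in both states. A further 1667 rose and 1625 fell without irradiation but were not called with it, and 256 rose and 234 fell with irradiation but were not called without it. A call in one state and not in the other is no test of the difference. Pair differences of the 2 tables did not overlap for 1812 genes with the irradiated pairs higher (10.5%) and for 1610 with the irradiated pairs lower (9.37%). The scatter of both effects shows where the cell cycle genes lie in it.

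**Figure D1:**
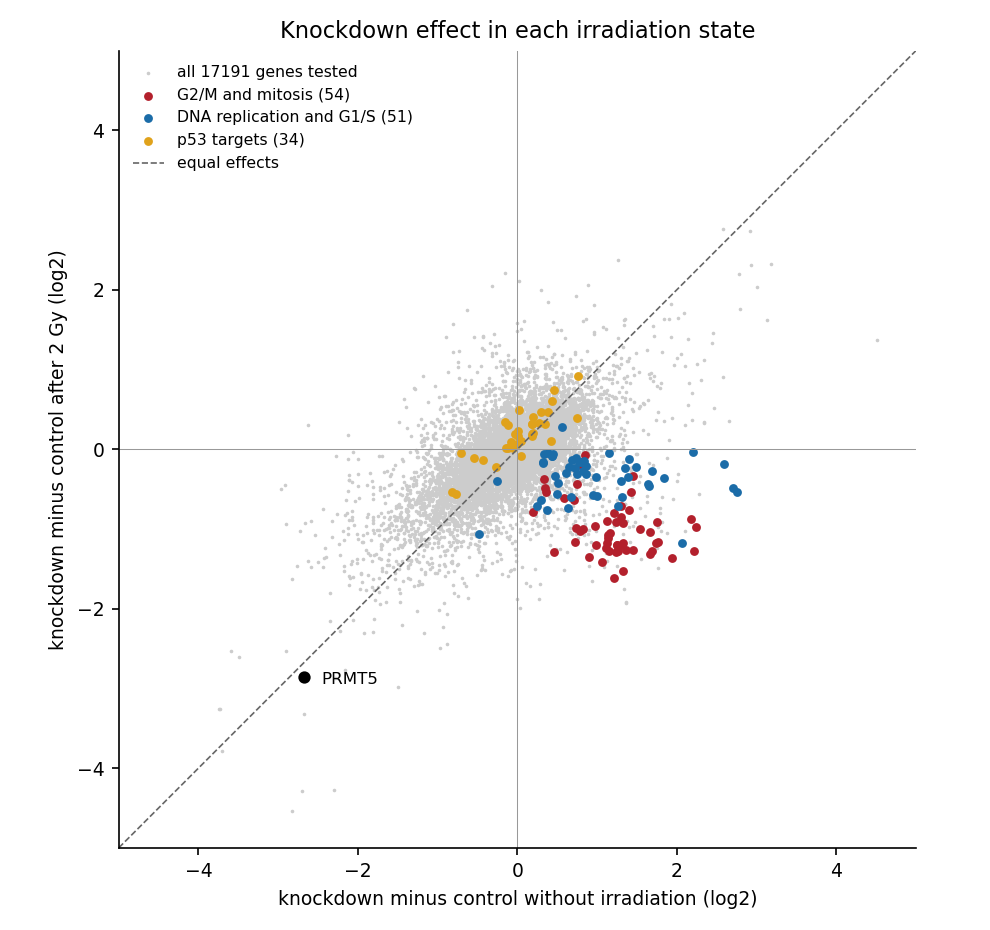
Knockdown effect without irradiation (x axis, log2) against knockdown effect after 2 Gy (y axis, log2) for the 17191 genes tested, each a point, with 3 gene lists coloured and PRMT5 in black. All 54 G2/M genes and all 51 replication genes lie below the dashed line of equal effects, and PRMT5 lies close to it.

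Only 6 genes were called in opposite directions in the 2 states, and they were singled out after their values were seen. Septin SEPT3, lysosomal cathepsin CTSV, the chromatin assembly subunit CHAF1B, PAQR4 and the tetraspan protein EMP2 rose with the knockdown without irradiation and fell with it. LYRM7, an assembly factor of respiratory complex III, fell without irradiation and rose with it. SEPT3 lay at 58.4, 48.1 and 46.9 CPM in non-irradiated controls and at 69.8, 52 and 55.4 CPM in their knockdowns, and at 61.5, 64.1 and 63.5 CPM in irradiated controls and 51.2, 54.6 and 52.9 CPM in theirs. Every non-irradiated pair was thus higher with the knockdown and every irradiated pair lower. LYRM7 gave 88.1, 69.9 and 66.9 against 76.9, 59.6 and 54.3 CPM without irradiation, and 80.8, 78.4 and 72.3 against 99.6, 85.7 and 84.9 CPM with it. The interaction of LYRM7 was 0.46 (SE 0.09, adjusted p = 0.173) and that of SEPT3 was -0.46 (SE 0.09, adjusted p = 0.179), so neither was called. PAQR4 shares 41.5% of its exon positions with another gene.

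Since no gene was called, the 5 genes each way with the smallest p and a mean of at least 5 CPM are described, none of them called. The negative ones were SAPCD2, CHAF1B, CTSV, C19orf48 and INCENP. CHAF1B (chromosome 21, 36385378 to 36419015), a subunit of the factor that loads histones onto newly copied DNA, was at 9.93, 10.8 and 10.3 CPM in non-irradiated controls and at 12.1, 21.6 and 16.5 CPM in their knockdowns. It was at 26.5, 9.17 and 9.37 CPM in irradiated controls and at 15.1, 5.94 and 7.5 CPM in their knockdowns. Each knockdown library was above its control without irradiation and below it with irradiation, while irradiated pair 1 lay far above the other irradiated pairs in level. The knockdown effect was 0.67 without irradiation (adjusted p = 0.00505) and -0.60 with it (adjusted p = 0.0201), and the interaction -1.27 (SE 0.20, adjusted p = 0.173).

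SAPCD2 (chromosome 9, 137062124 to 137070588), a regulator of spindle orientation, went from 26.1, 23.4 and 21.5 CPM to 36, 41.8 and 36.8 CPM without irradiation. In irradiated pairs it went from 63.3, 28.1 and 29 CPM to 60.4, 26.4 and 28.3 CPM, so its rise with the knockdown (0.70, adjusted p = 0.000205) was not seen there (-0.06, adjusted p = 0.648). Its interaction was -0.76 (SE 0.12, adjusted p = 0.173), and 22.9% of its exon positions lie in another gene. C19orf48 had pair differences of 0.53, 0.55 and 0.73 without irradiation and -0.20, 0.16 and 0.03 with it. CTSV, at 5.61 CPM on average, had an interaction of -1.29 (SE 0.22, adjusted p = 0.173). INCENP, the scaffold of the chromosomal passenger complex, is described with the mitotic genes.

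The positive ones were SHTN1, EPB41L4A-AS1, DENND1B, HIST1H2BN and STEAP2. DENND1B (chromosome 1, 197504748 to 197775696), an exchange factor for the vesicle GTPase RAB35, was at 67.6, 86 and 96.9 CPM in non-irradiated controls and 61.4, 76.9 and 88.5 CPM in their knockdowns. In irradiated controls it was at 55.8, 86.8 and 72.6 CPM and in their knockdowns at 72.2, 104 and 95.7 CPM. It was a little lower with the knockdown in each non-irradiated pair (-0.14, adjusted p = 0.0908) and rose in the irradiated ones (0.34, adjusted p = 0.0041), with an interaction of 0.49 (SE 0.08, adjusted p = 0.173). SHTN1, the gene of the axon protein shootin, fell from 104, 120 and 108 CPM to 70.6, 76.8 and 66.4 CPM without irradiation (-0.64, adjusted p = 4.55e-05). With irradiation it was at 77.3, 110 and 94.9 CPM in controls and 69.1, 99.3 and 86.9 CPM in knockdowns (-0.15, adjusted p = 0.121).

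STEAP2 (chromosome 7, 90167590 to 90238137), a prostate metalloreductase and 1 of the 8 luminal markers, followed the same shape at a much higher level. It fell from 2500, 2410 and 2020 CPM to 1490, 1460 and 1280 CPM without irradiation (-0.71, adjusted p = 8.84e-05). With irradiation it was at 876, 2170 and 2030 CPM in controls and 888, 1930 and 1740 CPM in knockdowns (-0.12, adjusted p = 0.299), and control 1 was the lowest of the 6 controls. Its interaction was 0.59 (SE 0.10, adjusted p = 0.173). EPB41L4A-AS1, a long noncoding RNA, had pair differences of -0.91, -0.91 and -1.01 without irradiation and of -0.01, -0.40 and -0.32 with it, but 49.6% of its exon positions lie in another gene. For SHTN1 that share is 32.7%.

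**Figure D2:**
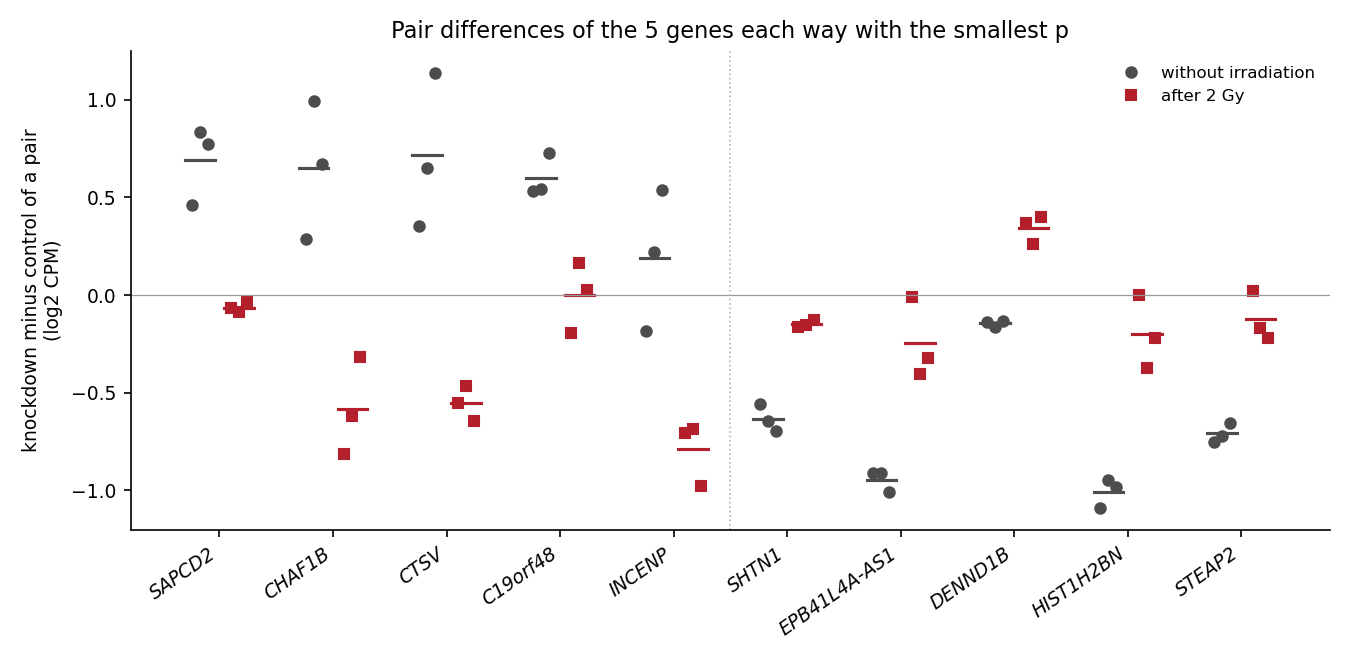
Knockdown minus control of each pair (y axis, log2 CPM) for the 5 negative and the 5 positive genes with the smallest p, with circles for the 3 pairs without irradiation, squares for the 3 after 2 Gy and bars for their means. The circles and squares of no gene overlap, and SAPCD2, CHAF1B, CTSV and DENND1B have circles and squares on opposite sides of 0.

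Whether these 10 genes were called depended on the tool, on the filter and on 1 pair. DESeq2 called all 10, with adjusted p from 0.00047 for STEAP2 to 0.0241 for CTSV. Without non-irradiated pair 1, edgeR called all 10 as well, and with no filter on low counts too, with adjusted p in the first of these from 0.000191 for SAPCD2 to 0.0082 for HIST1H2BN. With no filter the estimated prior degrees of freedom were infinite, and edgeR's newer quasi-likelihood method called 0 genes. A stricter filter, of at least 1 CPM in every library of a group, called 0 as well. The interaction of the 10 genes kept its sign under each of the 15 alternatives. They were picked for a small p in these same libraries, so these calls and signs are no separate support.

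Genes of the cell cycle held the largest medians among the lists. E2F factors switch on replication genes before S phase through words such as TTTCCCGC, TTTGGCGC and TTTCGCGC in their promoters. Genes of G2 and mitosis are held silent through the cell cycle homology region, TTTGAA, which is bound by the DREAM complex in resting cells and by B-MYB and FOXM1 complexes in dividing ones. RefSeq promoters (GRCh38.p14, 250 bases before to 50 after the start) were matched by symbol for 44 of the 51 replication genes and 46 of the 54 G2/M genes. An E2F word stood on either strand in 54.5% of the replication promoters, against 4.5% of the 10341 promoters of tested genes and 2.79% of all 27305. TTTGAA stood in 71.7% of the G2/M promoters, against 9.44% and 15.4%. The CCAAT box, the word of NF-Y, stood in 54.5% of replication and 76.1% of G2/M promoters, against 37.0% and 35.7%. The words can overlap one another by a few letters, and a match is a description and not a bound site.

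The windows below are 60 bases of the promoters of 4 replication genes with E2F words and 4 G2/M genes with TTTGAA, taken in order of the interaction p among windows that end before the gene's start. Not every chromosome was used for these windows. They were chosen for these words and show where each word stands, and capitals mark the E2F words in the first 4 and TTTGAA, or its reverse complement TTCAAA, in the last 4. Each is printed 5′ to 3′ on the strand of its gene. POLA1, the catalytic subunit of the priming polymerase, is at chrX:24693755-24693814 (plus strand). MCM6, a subunit of the replicative helicase, is at chr2:135876496-135876555 (minus strand), and its capitals hold 2 overlapping words. PCNA, the sliding clamp, is at chr20:5126648-5126707 (minus strand). CDC25A, the phosphatase that activates CDK2, is at chr3:48188428-48188487 (minus strand). CKS2, a CDK1 binding protein, is at chr9:89311135-89311194 (plus strand). CCNF, cyclin F, is at chr16:2429334-2429393 (plus strand). ESPL1, the protease separase, is at chr12:53268239-53268298 (plus strand), and CDK1, the mitotic kinase, is at chr10:60778143-60778202 (plus strand).
POLA1: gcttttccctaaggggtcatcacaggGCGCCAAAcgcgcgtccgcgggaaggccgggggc
MCM6: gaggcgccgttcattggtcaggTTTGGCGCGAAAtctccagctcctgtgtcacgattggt
PCNA: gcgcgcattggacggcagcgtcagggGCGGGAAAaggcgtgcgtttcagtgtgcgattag
CDC25A: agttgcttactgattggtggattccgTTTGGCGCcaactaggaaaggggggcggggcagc
CKS2: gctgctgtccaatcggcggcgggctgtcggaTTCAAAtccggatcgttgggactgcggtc
CCNF: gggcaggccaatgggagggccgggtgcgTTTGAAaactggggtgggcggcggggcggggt
ESPL1: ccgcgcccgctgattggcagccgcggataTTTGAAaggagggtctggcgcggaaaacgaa
CDK1: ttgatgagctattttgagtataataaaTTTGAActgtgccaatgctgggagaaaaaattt

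Of the 51 genes of DNA replication and G1/S, all tested, 51 had a negative interaction and 0 a positive one, against 8432 negative and 8759 positive over all genes, and 0 were called. The median was -1.07, against 0.01 for all genes, and 36 of the 51 had an unadjusted p under 0.05, all negative (6.13% of all genes). The pair differences of 35 did not overlap between the tables, all with the irradiated pairs lower (9.37% of all genes). Without irradiation 20 of the 51 rose with the knockdown and 0 fell, and with irradiation 0 rose and 4 fell (CHAF1B, DUT, GMNN and PRIM1). Over all genes 13.7% rose and 14.1% fell without irradiation, and 5.43% rose and 6.05% fell with it. Members of a list share their libraries and are often regulated together, so these counts are not 51 separate observations.

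By role, the 16 genes of origin licensing and the helicase had a median of -1.43 (11 with an unadjusted p under 0.05), and the 9 G1/S regulators one of -1.37 (6). The 19 genes of polymerases, clamp and fork had a median of -1.05 (16), and the 7 of nucleotide supply one of -0.88 (3). POLE, the leading-strand polymerase, had the smallest p after CHAF1B. It went from 34.8, 38.4 and 44.8 CPM to 46.3, 54.9 and 60.1 CPM without irradiation, and from 41.1, 31.3 and 35.5 CPM to 44, 28.2 and 32.7 CPM with it. It rose without irradiation (0.45, adjusted p = 0.00111), its effect with irradiation was -0.05 (adjusted p = 0.667), and its interaction was -0.51 (SE 0.10, adjusted p = 0.18). CHAF1A, the partner of CHAF1B, had an interaction of -1.05 (SE 0.20, adjusted p = 0.195) and POLA1 one of -0.49 (SE 0.12, adjusted p = 0.199).

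The genes with printed E2F windows showed how far the pairs differed. PCNA was at 77.6, 74.5 and 75.2 CPM in non-irradiated controls and 97.3, 162 and 126 CPM in their knockdowns, and at 213, 119 and 94.2 CPM in irradiated controls and 152, 121 and 104 CPM in their knockdowns. CDC25A was at 13.5, 10.5 and 10.4 against 14.6, 25.3 and 21 CPM without irradiation and at 45.8, 9.6 and 8.57 against 31.7, 8.79 and 10.2 CPM with it. In both genes non-irradiated pair 1 differed less than pairs 2 and 3, and irradiated pair 1 had the highest levels. The range of the 51 interactions ran from -3.29 for RRM2, the small subunit of ribonucleotide reductase, to -0.14 for DUT, the enzyme that keeps uracil out of DNA. RRM2 was at 15.3, 2.23 and 3.3 CPM in non-irradiated controls and 16.4, 59.1 and 45.8 CPM in their knockdowns, but at 88.3, 4.2 and 3.83 CPM in irradiated controls and 48.9, 3.38 and 3.46 CPM in theirs. Its pairs spread widely (SE of the interaction 1.43, adjusted p = 0.461).

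Of the 54 genes of G2/M and mitosis, all tested, 54 had a negative interaction, with a median of -2.25 and a range from -3.49 (KIF18B, a kinesin of microtubule plus ends) to -0.70 (SMC4, a condensin subunit). None was called, and 10 had an unadjusted p under 0.05 with a negative value (6.13% of all genes). The pair differences of 15 did not overlap between tables, all lower with irradiation (9.37% of all genes). Without irradiation CKS2 and CCNF rose with the knockdown and 0 fell (13.7% and 14.1% of all genes). With irradiation INCENP fell and 0 rose (6.05% and 5.43% of all genes). The median of every role was negative, from -1.49 for the 10 cyclins, CDK1 and its regulators to -2.46 for the 9 centromere and kinetochore genes. The 13 kinesins and spindle genes had a median of -2.45, the 5 genes of anaphase and chromatid separation -2.42, the 9 mitotic kinases -2.35 and the 8 genes of chromosome structure and cytokinesis -2.25.

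INCENP (chromosome 11, 62123973 to 62153163) was at 16.7, 13.9 and 11.5 CPM in non-irradiated controls and 14.7, 16.2 and 16.8 CPM in their knockdowns, and at 26.6, 18.8 and 22.1 CPM in irradiated controls and 16.3, 11.7 and 11.2 CPM in theirs. All 3 irradiated pairs were lower with the knockdown, and the non-irradiated pairs went both ways. INCENP fell with irradiation (-0.79, adjusted p = 0.00302), and its interaction was -0.99 (SE 0.18, adjusted p = 0.173). CKS2 went from 32.7, 19 and 18.6 CPM to 39.2, 41.5 and 35.9 CPM without irradiation, and from 94.4, 50.9 and 47.4 CPM to 83.7, 42.4 and 42.8 CPM with it (interaction -0.98, SE 0.20, adjusted p = 0.199). WEE1, the kinase that holds CDK1 inactive, had pair differences of -0.20, 0.76 and 0.47 without irradiation and of -0.51, -0.59 and -0.51 with it (interaction -0.90, SE 0.22, adjusted p = 0.234).

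Other well-known members, named for their role after their values were seen, had larger interactions and a much wider spread. TOP2A, the topoisomerase that untangles sister chromatids, was at 70, 5.27 and 11.5 CPM in non-irradiated controls and 28.4, 80.1 and 74.9 CPM in their knockdowns. In irradiated controls it was at 57.6, 82.3 and 79 CPM and in their knockdowns at 42.2, 29 and 26.6 CPM. Non-irradiated controls 2 and 3 were the lowest of the 12 libraries, and non-irradiated pair 1 went the other way from pairs 2 and 3. The interaction of TOP2A was -2.91 (SE 1.61, adjusted p = 0.53). CDK1 had the same 2 low controls, at 86.8, 19.5 and 19.5 against 86.2, 114 and 73.2 CPM without irradiation and at 224, 96.7 and 76.9 against 161, 77.8 and 66.5 CPM with it (interaction -1.79, SE 0.75, adjusted p = 0.447).

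Mean levels of the G2/M list per library, in log2 CPM, showed the same 2 low controls. They were 4.21, 1.90 and 2.49 in non-irradiated controls and 3.33, 4.48 and 4.41 in their knockdowns, and 4.78, 4.38 and 4.28 in irradiated controls and 4.09, 3.23 and 3.16 in theirs. The pair differences were thus -0.88, 2.58 and 1.92 without irradiation and -0.69, -1.16 and -1.12 with it. Irradiated pairs were all lower with the knockdown, whereas non-irradiated pairs 2 and 3 were higher and pair 1 was lower, at a value between those of irradiated pairs 1 and 3. The replication list gave pair differences of 0.04, 1.52 and 1.26 without irradiation and -0.66, -0.19 and -0.09 with it, which do not overlap. Its levels were 4.20, 3.63 and 3.59 in non-irradiated controls, 4.25, 5.15 and 4.85 in their knockdowns, 5.62, 3.82 and 3.77 in irradiated controls and 4.96, 3.62 and 3.68 in theirs. Irradiated pair 1 was the highest irradiated pair there, in control and knockdown alike.

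**Figure D3:**
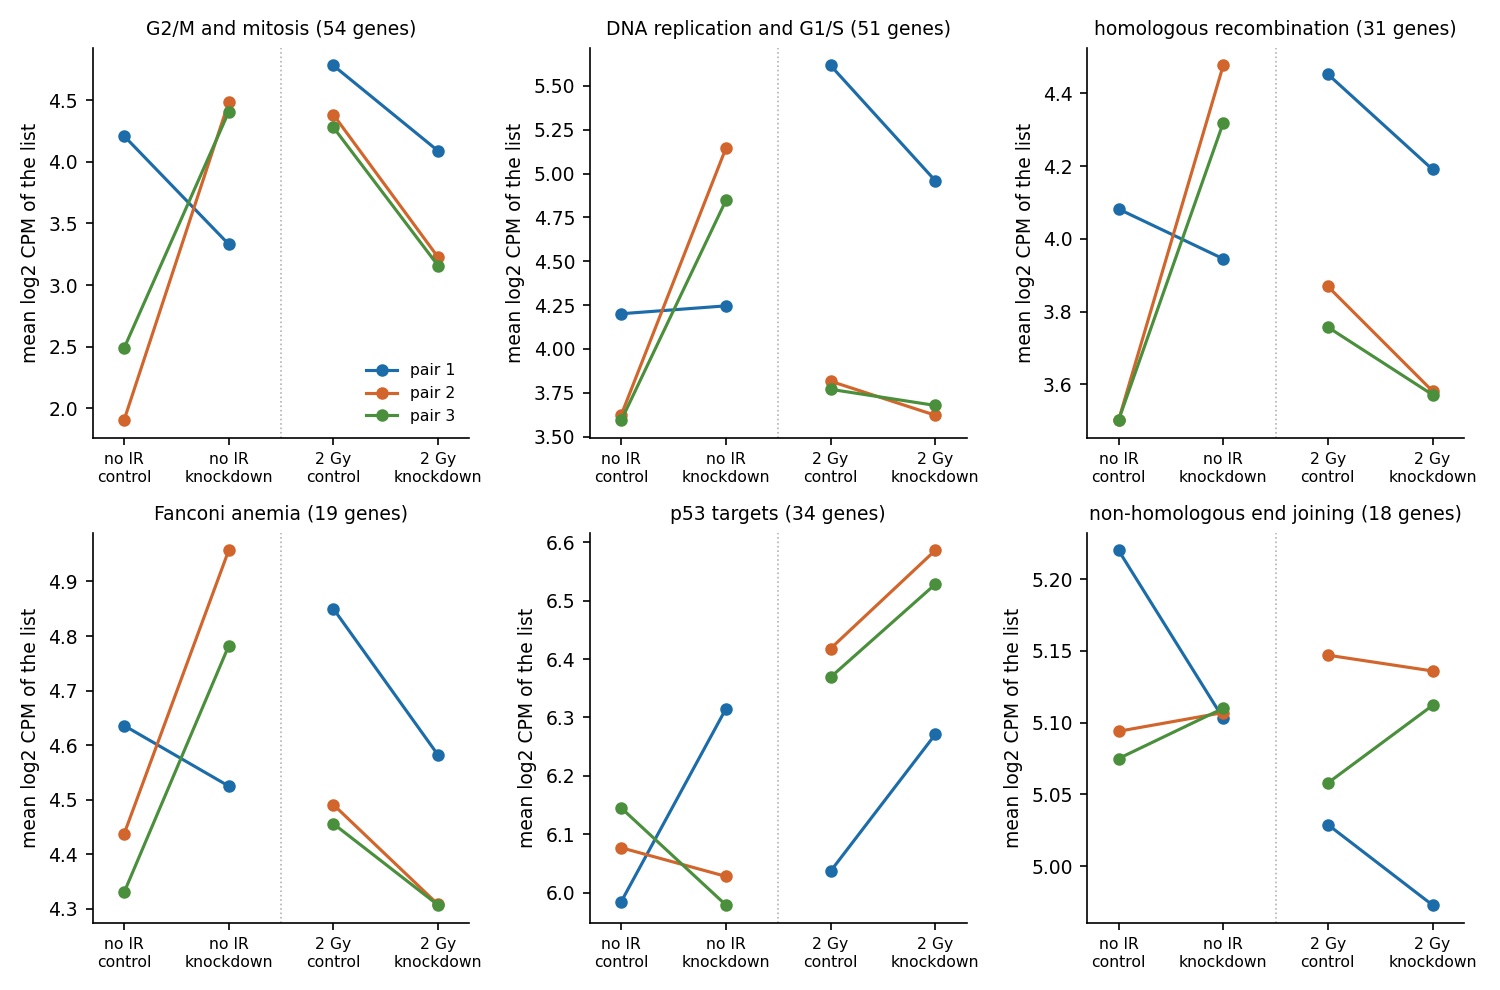
Mean log2 CPM of 6 gene lists (y axis, with its own scale in each panel) in the 4 groups (x axis), with 1 point per library and a line joining the control and knockdown of each pair. In the G2/M panel the lines of non-irradiated pairs 2 and 3 go up by 2.58 and 1.92, and the other 4 lines go down.

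Leaving out non-irradiated pair 1 turned these signs into calls. Of 17429 genes tested without it, 712 had an interaction in edgeR's test, 244 positive (1.4% of genes tested) and 468 negative (2.69%). Among them were 46 of the 51 replication genes and 53 of the 54 G2/M genes, all lower after irradiation, with list medians of -1.40 and -3.45. Of the 65 genes that DESeq2 called on all pairs, 64 were among the 712. Without non-irradiated pair 2 or irradiated pair 1, 2 or 3, edgeR called 0 genes, and without non-irradiated pair 3 it called 1. Without replicate 1 of both tables, an alternative chosen after the data were seen, 1410 of 17185 genes were called (8.2%). Of these 683 were positive and 727 negative, with 50 replication and 52 G2/M genes among the negative ones. With all pairs kept, DESeq2 called 12 replication and 3 G2/M genes lower after irradiation, against 46 lower among all 17191 genes. With no filter on low counts edgeR called 686 of 34300 genes (2%), 153 positive and 533 negative. The negative ones held 48 replication and 54 G2/M genes. The estimated prior degrees of freedom were infinite there, and edgeR's newer quasi-likelihood method on the same genes called 0. Whether these genes were called thus depended on non-irradiated pair 1, on the tool and on the filter. The medians stayed below 0 over the 15 alternatives and ran from -0.86 to -1.40 for replication and from -1.51 to -3.65 for G2/M.

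Irradiated cells depend on the repair of double-strand breaks. Homologous recombination copies the sister chromatid and is active in S and G2 phase, and many of its genes are transcribed with the replication genes. Of its 32 listed genes 31 were tested, 25 negative and 6 positive, with a median of -0.27 and 0 called. At an unadjusted p under 0.05 there were 7 negative genes and 1 positive one (6.13% and 6.05% of all genes). The pair differences of 10 did not overlap with the irradiated pairs lower and of 1 with them higher (9.37% and 10.5% of all genes). Without irradiation 3 rose, among them DNA2 and SLX4, and NBN fell, and with irradiation RAD50 and SLX4 rose and RBBP8 fell. Over all genes 13.7% rose and 14.1% fell without irradiation, and 5.43% rose and 6.05% fell with it. These calls are thus not particular to the list.

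DNA2, a nuclease and helicase of end resection, rose without irradiation (0.77, adjusted p = 0.00356) and had an interaction of -0.83 (SE 0.21, adjusted p = 0.218). RAD51C, a recombination mediator, had pair differences of 0.04, 0.22 and 0.13 without irradiation and -0.36, -0.21 and -0.12 with it (interaction -0.36, SE 0.10, adjusted p = 0.244).

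The recombination genes covered a wide range of values. EXO1, a nuclease of long-range resection, had -3.27 (SE 1.04), the resolvase subunit EME1 -2.43 (SE 0.72) and the helicase BLM -2.52. The break sensors and early resection genes MRE11A, RBBP8 and NBN had -0.17, -0.06 and 0.18, and RAD50 had 0.23 (SE 0.09, adjusted p = 0.359). RAD50 was at 109, 99.9 and 103 CPM in non-irradiated controls and 108, 107 and 102 CPM in their knockdowns, and at 89.4, 126 and 110 CPM in irradiated controls and 115, 139 and 130 CPM in theirs, so it rose with the knockdown after irradiation (0.25, adjusted p = 0.0275). List means of pair differences were -0.14, 0.98 and 0.82 without irradiation and -0.26, -0.29 and -0.19 with it. Without non-irradiated pair 1, 14 of the 31 were called, all negative (2.69% of all genes).

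The 19 Fanconi anemia genes, which repair crosslinks and protect stalled forks, were all tested, with 14 negative and 5 positive values, a median of -0.36 and 0 called. Without irradiation 2 rose with the knockdown and 2 fell (13.7% and 14.1% of all genes). With irradiation 1 rose and 1 fell (5.43% and 6.05% of all genes). FANCC of the core complex rose without irradiation (0.39, adjusted p = 0.00427), with pair differences of 0.34, 0.42 and 0.40, and had -0.18, 0.01 and -0.02 with it (interaction -0.45, SE 0.11, adjusted p = 0.209). FANCE, which bridges the core complex to FANCD2, had -0.21, 0.08 and 0.45 without irradiation and fell with it (-0.56, adjusted p = 0.0275). UBE2T, the ubiquitin-conjugating enzyme of the pathway, had an interaction of -0.95 (SE 0.29, adjusted p = 0.32). Without non-irradiated pair 1, 9 of the 19 were called, all negative (2.69% of all genes).

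End joining, which works throughout the cell cycle, showed no common direction. Of its 19 genes 18 were tested, 9 positive and 9 negative, with a median of 0.00 and a range from -0.21 to 0.42. LIG4, the ligase of the pathway, held the largest value. It was at 54.6, 50.7 and 43.9 CPM in non-irradiated controls and 51.8, 39.7 and 36.3 CPM in their knockdowns, and at 29.6, 53.9 and 47.7 CPM in irradiated controls and 34.6, 60.6 and 53.1 CPM in theirs. LIG4 was lower in all non-irradiated pairs, where it fell (-0.23, adjusted p = 0.0289), and higher in all irradiated pairs (0.18, adjusted p = 0.118), with an interaction of 0.42 (SE 0.10, adjusted p = 0.199). LIG4 was the only gene of the list that edgeR called without non-irradiated pair 1 (adjusted p = 0.0112). Of all genes, 1.4% were called higher in that setting. The list's mean level lay between 4.97 and 5.22 log2 CPM in the 12 libraries.

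**Figure D4:**
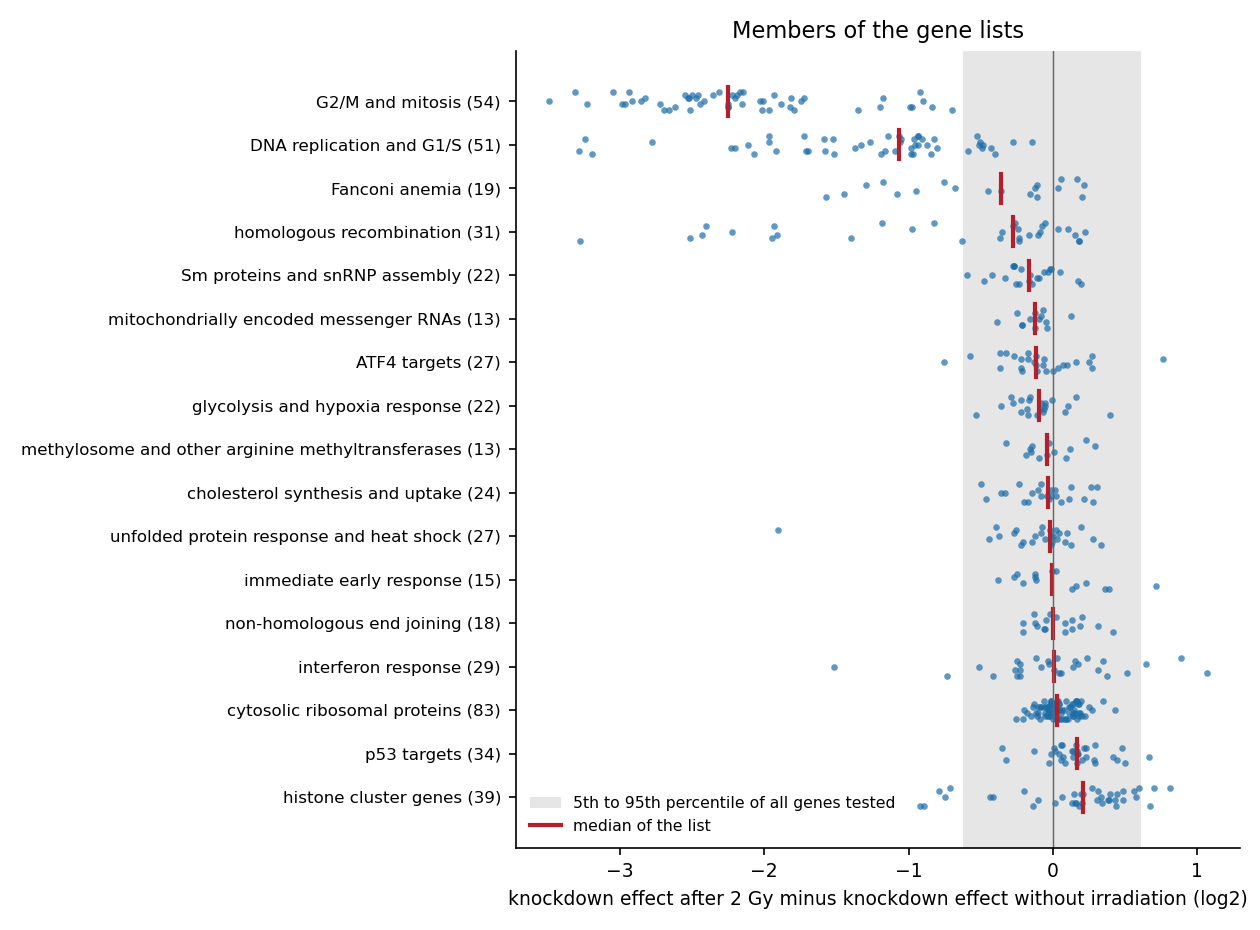
Interaction of each member (x axis, log2) of the 17 lists with at least 10 tested genes (rows, with the number of genes), with a bar at each list's median and a grey band from -0.62 to 0.61, the 5th to 95th percentile of all genes. The G2/M and replication rows lie wholly to the left of 0, with medians of -2.25 and -1.07, and the histone and p53 rows have medians of 0.21 and 0.16.

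Targets of p53, which arrest the cycle, drive apoptosis or repair DNA, had 29 positive and 5 negative values among 34 tested genes, with a median of 0.16. None was called, and 3 positive and 2 negative ones had an unadjusted p under 0.05 (6.05% and 6.13% of all genes). All 13 genes of cell cycle arrest and p53 feedback were positive, with a median of 0.17, against 7 of 11 for apoptosis and 9 of 10 for repair and metabolism. Without irradiation 8 of the 34 rose with the knockdown and 2 fell (13.7% and 14.1% of all genes). With irradiation 9 rose and 0 fell (5.43% and 6.05% of all genes). MDM2, the ubiquitin ligase that degrades p53, was at 314, 320 and 351 CPM in non-irradiated controls and 330, 298 and 283 CPM in their knockdowns, and at 307, 470 and 469 CPM in irradiated controls and 391, 565 and 571 CPM in theirs. All 3 irradiated pairs were higher with the knockdown (0.30, adjusted p = 0.028), and the interaction was 0.42 (SE 0.11, adjusted p = 0.231). CDKN1A, which encodes p21, was at 229, 314 and 351 against 413, 259 and 252 CPM without irradiation and at 313, 298 and 333 against 401, 459 and 477 CPM with it. Its interaction of 0.47 had an SE of 0.39 (adjusted p = 0.664), and non-irradiated pair 1 differed in direction from pairs 2 and 3.

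Of the other p53 targets, the death receptor gene FAS had an interaction of 0.50 (SE 0.15, adjusted p = 0.281) and GADD45A one of 0.66 (SE 0.24, adjusted p = 0.358). DDB2, which recognizes ultraviolet lesions, went the other way. It rose from 37.7, 47.6 and 50.6 CPM to 53.2, 64.1 and 65 CPM without irradiation (0.43, adjusted p = 0.000618) and was at 53.9, 71.6 and 75.3 against 57.4, 75.8 and 82 CPM with it (0.10, adjusted p = 0.307). Its interaction was -0.33 (SE 0.09, adjusted p = 0.227). List means of pair differences were 0.33, -0.05 and -0.17 without irradiation and 0.23, 0.17 and 0.16 with it, so non-irradiated pair 1 lay with the irradiated pairs. Without that pair 8 of the 34 were called, all positive (1.4% of all genes).

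Histone cluster genes encode the histones made in S phase, whose messages mostly lack poly(A) tails, and the libraries were made from polyadenylated RNA. Of 71 listed genes 39 were tested, with 29 positive and 10 negative values and a median of 0.21. None was called on all pairs. Without non-irradiated pair 1, 6 were called higher and 1 lower (1.4% and 2.69% of all genes), with a median of 0.31. Without irradiation 2 rose and 12 fell with the knockdown (13.7% and 14.1% of all genes). With irradiation 0 rose and 2 fell (5.43% and 6.05% of all genes). HIST1H2BN had the smallest p, at 20.8, 21.9 and 22.1 CPM in non-irradiated controls and 9.7, 11.3 and 11.1 CPM in their knockdowns, and at 16, 17.7 and 16.8 against 16, 13.7 and 14.4 CPM with irradiation. Its fall without irradiation (-1.01, adjusted p = 8.16e-05) was larger in each pair than any irradiated difference, and the interaction was 0.81 (SE 0.14, adjusted p = 0.173). HIST1H2BC had 0.56 (SE 0.14, adjusted p = 0.211). Histone genes are near-identical copies, so part of these counts is uncertain: 26.9% of the 50-base words of HIST2H2BF, with an interaction of 0.48, occur in another gene.

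Sm proteins and snRNP assembly factors, the splicing substrates of PRMT5 and their partners, had 19 negative and 3 positive values among 22 genes, a median of -0.17 and 0 called. Without irradiation 13 rose with the knockdown (13.7% of all genes) and with irradiation 0 did (5.43%). SNRPB, a core Sm protein that PRMT5 methylates, rose from 58.5, 79.9 and 69.3 CPM to 77.8, 109 and 110 CPM without irradiation (0.51, adjusted p = 0.00486). With it SNRPB was at 173, 57.5 and 76.5 against 145, 69.7 and 90.5 CPM (0.08, adjusted p = 0.627), where pair 1 went down and pairs 2 and 3 up. The interactions were -0.42 for SNRPB (SE 0.14, adjusted p = 0.312), -0.34 for SNRPD2 (SE 0.10, adjusted p = 0.255) and -0.59 for SNRPA (SE 0.17, adjusted p = 0.263). Without irradiated pair 1 the median of the list was -0.10, and 6 of 22 were positive. Leaving out non-irradiated pair 1 instead gave a median of -0.24, with 1 gene called, lower (2.69% of all genes).

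PRMT5's partners and the other arginine methyltransferases had 5 positive and 8 negative values among 13, with a median of -0.04. WDR77, the methylosome partner that holds substrates, fell with the knockdown in both states (-0.31, adjusted p = 0.0181, and -0.47, adjusted p = 0.00545). PRMT3, which methylates a ribosomal protein, fell without irradiation (-0.38, adjusted p = 0.00197) and had -0.09 with it (interaction 0.29, SE 0.09, adjusted p = 0.292). PRMT7, which makes monomethyl arginine, rose without irradiation (0.37, adjusted p = 0.00512) and had 0.04 with it (interaction -0.33, SE 0.11, adjusted p = 0.306).

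With all pairs, the medians of the stress and metabolic lists lay near that of all genes. Of 27 ATF4 targets, genes of amino acid supply and the integrated stress response, 19 were negative and 8 positive with a median of -0.11, and 0 had an unadjusted p under 0.05. Their pair differences were -0.10, -0.77 and -0.59 without irradiation and 0.30, -0.93 and -1.01 with it, and again pair 1 stood apart in both tables. The direction of the ATF4 list depended on single pairs. Without non-irradiated pair 1 its median was 0.076, with 15 of 27 positive and 1 called higher (1.4% of all genes). Without irradiated pair 1 it was -0.48, with 2 positive and 0 called. For the ATF4 targets it was 0.052 without irradiated pair 2 and 0.16 without irradiated pair 3. Without replicate 1 of both tables it was -0.35, with 15 called lower and 3 higher. Of all 17185 genes in that setting 727 were called lower and 683 higher, together 8.2%. ATF3, a stress-induced transcription factor, fell without irradiation (-1.38, adjusted p = 0.00986) and had pair differences of -0.0048, -0.95 and -0.85 with it (interaction 0.76, SE 0.32, adjusted p = 0.425). The median was -0.02 for 27 genes of the unfolded protein response and heat shock, -0.03 for 24 of cholesterol synthesis and uptake, -0.10 for 22 of glycolysis and hypoxia, and -0.01 for 15 of the immediate early response. The medians of the unfolded protein, cholesterol and immediate early lists took either sign when single pairs were left out. In the cholesterol list TM7SF2, a sterol reductase, had -0.46 (SE 0.13, adjusted p = 0.245), and STARD4, a sterol carrier, rose with irradiation (0.40, adjusted p = 0.00387) with an interaction of 0.31 (SE 0.10, adjusted p = 0.285).

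The interferon response, which cytosolic DNA can switch on after irradiation, had 15 positive and 14 negative values among 29 tested genes and a median of 0.00, which took either sign when single pairs were left out. TRIM22, an antiviral ubiquitin ligase, rose with the knockdown in both states (1.36, adjusted p = 0.000308, and 0.85, adjusted p = 0.00634), with an interaction of -0.51 (SE 0.23, adjusted p = 0.411). OAS3, a sensor of double-stranded RNA, had pair differences of -0.58, 1.58 and 1.11 without irradiation and -1.27, -0.47 and -0.48 with it, with non-irradiated pair 1 on the side of the irradiated pairs (interaction -1.52, SE 0.64, adjusted p = 0.433). Of 13 mitochondrially encoded messages 12 were negative with a median of -0.12. MT-ATP6, a subunit of ATP synthase, rose without irradiation (0.67, adjusted p = 0.00105) and had 0.28 with it (adjusted p = 0.104), with 46.7% of its words also found elsewhere. Of 83 cytosolic ribosomal protein genes 49 were positive with a median of 0.03. The 3 with an unadjusted p under 0.05 (RPS4X, RPS3A and RPL7) had values from 0.22 to 0.27. Over all genes 6.05% were positive at that threshold.

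Markers of cell types were checked beside these results. The 8 luminal markers had a median of 0.06, with 6 positive and 2 negative. Without irradiation 5 of them fell with the knockdown (14.1% of all genes), and with irradiation 3 did (6.05%). TMPRSS2, an androgen-regulated protease of the prostate surface, had pair differences of -0.03, -0.15 and 0.01 without irradiation and fell with it (-0.28, adjusted p = 0.0221), with an interaction of -0.23 (SE 0.10, adjusted p = 0.388).

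Markers of other cells summed to less than the luminal markers in every group, and their part in the result was not tested. Of 12 leukocyte markers 5 were at 0 in all libraries, among them CD3E, and the pan-leukocyte gene PTPRC had 1 count over the 12 libraries. Their sum, almost all LCP1, an actin-bundling protein, ranged from 49.1 to 74.6 CPM in non-irradiated controls, 70.6 to 124 in their knockdowns, 78.6 to 261 in irradiated controls and 98.6 to 244 in theirs. Fibroblast markers summed to between 13.4 and 32.3 CPM over the 4 groups, with 2 of 12 at 0 (COL1A2 and PDGFRA), and basal markers to between 2.42 and 11.7 CPM. Neuroendocrine markers summed to 197 to 218 CPM in non-irradiated controls, 267 to 301 in their knockdowns, 191 to 211 in irradiated controls and 189 to 242 in theirs, and CHGA had 1 count in all. Among them SYT4, a vesicle protein, rose without irradiation (2.34, adjusted p = 0.0353), at 21.2, 17.3 and 9.72 against 42.9, 107 and 99 CPM, and was at 26, 29.7 and 29.5 against 41.6, 77.5 and 72 CPM with it. Its interaction was -1.22 (SE 0.68, adjusted p = 0.531).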

How the data were processed

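Polyadenylated RNA of 12 libraries was extracted with Trizol, per the labels' protocols. The authors deposited 2 tables of raw counts per gene, one per irradiation state, laid out like featureCounts output per the file headers. Tools in the submitters' processing notes are featureCounts (Subread 1.5.3), STAR 2.5 and edgeR 3.20.8, with the build GRCh38. The sources used here do not give the strand setting, the treatment of multi-mapping reads or the annotation release, so counts of overlapping or near-identical genes are uncertain. Shares of exon positions and of 50-base words found in another gene come from the tables' coordinates and GENCODE 29 transcripts.

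The deposited counts (63299 genes, 34300 with a count, totals from 14801939 to 33158865 per library) were filtered with filterByExpr (minimum count 10, minimum total 15), scaled by TMM and fitted with edgeR 4.0.16 in R 4.3.3. One robust quasi-likelihood model held a level for each of the 6 pairs and a knockdown effect per irradiation state, with 4 residual degrees of freedom. The test was the difference of both effects, with Benjamini-Hochberg adjustment over 17191 genes, and every adjusted p is from it unless another tool is named. SE is the absolute log2 value divided by the square root of F. For pair differences and list means, log2 CPM was computed with a prior count of 2. Replicates of a group differed by more than sampling noise (chi-square per gene from 9.34 to 138.5, the largest between irradiated controls 1 and 2).

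The replicate number within a table was used as the pair. Deviations from group means correlated between control and knockdown of the same number at 0.23, 0.25 and 0.30 without irradiation. With irradiation they correlated at 0.78, 0.61 and 0.61. Only same numbers were compared. Irradiated replicate 1 stood apart in controls and knockdowns, which moves both group means and so the deviations of the other replicates. These correlations thus cannot decide whether the numbers mark true pairs. Named genes were PRMT5, the largest called interactions or, where fewer than 5 were called in a direction, the 5 with the smallest p and a mean of at least 5 CPM, and up to 4 members of each of the 22 lists with the smallest p. The libraries, lists and tests were chosen with earlier results of these data known, so the lists are described by counts and medians with no test of a list. The alternatives were no pair block, DESeq2 1.42.0, limma-voom (limma 3.58.1), scaling by library size, no filter, a filter of at least 1 CPM in every library of a group, and each pair left out in turn. Leaving out replicate 1 of both tables and edgeR's newer quasi-likelihood method were added after seeing the data.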

Additional observations from a re-analysis of the deposited data

Results flagged for a closer look

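The mean of the 51 DNA replication and G1/S genes moved in opposite directions with the knockdown in the 2 irradiation states, up in each of the 3 non-irradiated pairs (0.04, 1.52 and 1.26 log2 CPM) and down in each of the 3 irradiated ones (-0.66, -0.19 and -0.09). The means of these pair differences were 0.94 ± 0.79 and -0.31 ± 0.30 (SD, n = 3), a difference of -1.254, which was not tested as a list. Non-irradiated pair 1, at 0.04, was close to 0.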

How the results depend on the processing

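Over 15 alternatives the interaction was called for 0 genes except with DESeq2 (65), with no filter on low counts (686) and with pairs left out (0 to 1410, where 712 came without non-irradiated pair 1, 1 without non-irradiated pair 3 and 1410 without replicate 1 of both tables). With no filter the estimated prior degrees of freedom were infinite, and the newer quasi-likelihood method on the same genes called 0. Leaving out non-irradiated pair 1 also called 1 gene each among Sm, end joining, cholesterol and ribosomal protein genes. It did the same for the immediate early, interferon, luminal and neuroendocrine lists. Of all genes, 4.09% were called in either direction in that setting. Without the replicate block, the interaction was called for 0 genes (350 at an unadjusted p under 0.05), and the knockdown for 265 in place of 4776 without irradiation and 51 in place of 1974 with it. With pairs left out those counts ran from 2335 to 7272 and from 282 to 5031, and with no filter 2971 were called with irradiation. Leaving out pairs moved list medians, which ran from -3.65 to -1.51 for G2/M, -0.093 to 0.096 for cholesterol, -0.194 to -0.065 for glycolysis, 0.174 to 0.324 for histones, -0.116 to 0.084 for interferon, -0.399 to -0.168 for leukocyte and 0.043 to 0.114 for luminal markers. Medians near 0 turned sign with pairs left out, for cholesterol and interferon as above, and also for ATF4 targets (-0.475 to 0.160), the immediate early response (-0.118 to 0.082), the unfolded protein response and heat shock (-0.082 to 0.042), cytosolic ribosomal proteins (-0.030 to 0.103), fibroblast markers (-0.195 to 0.066), methylosome and other arginine methyltransferases (-0.099 to 0.019) and non-homologous end joining (-0.039 to 0.034). Among named genes, signs turned for markers that were not called: with pairs left out CD4 ran from -0.83 to 0.079, ACPP from -0.027 to 0.54, VIM from -0.35 to 0.050, SYP from -0.14 to 0.11, CORO1A from -0.40 to 0.39, COL1A1 from -0.20 to 0.066, PDGFRB from -0.15 to 0.78, ITGB4 from -0.60 to 0.10 and LUM from -0.60 to 0.12 (0.021 without the block). The causes were not tested.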
